A study of Mus musculus with 24 samples.

Results

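The experiment described here compared mouse leukemia cells with the fusion gene CALM-AF10 switched off and cells with the fusion on. It comprised 6 of the 24 RNA-seq libraries of the series, 3 per state, chosen as the columns named on and off in the deposited table of read counts, and all 24421 genes of that table entered. CALM-AF10 joins most of the clathrin adaptor protein CALM, encoded by Picalm, to part of AF10, encoded by Mllt10. The AF10 portion binds the histone methyltransferase DOT1L, and in mouse bone marrow the fusion is known to keep Hoxa genes active and to cause acute leukemia. All 6 libraries are labelled as polyA RNA of leukemia cells from bone marrow of the C57BL/6 strain, with the genotype given as wild type. The cells carried the construct iCALM_AF10, were cultured with the cytokines SCF, IL3 and IL6, and were exposed to doxycycline (DOX) or to the vehicle DMSO. Titles give DMSO and DOX while the columns give on and off, and no source used here ties these names, so the states are those of the column names. If the states follow the treatments, an effect of DOX itself cannot be told apart from that of the fusion. The dose, the duration, the promoter that drives the fusion and whether the cells descend from 1 clone are not stated in what was used here. Separate cultures for the libraries of a state are not recorded, so p-values measure the spread between libraries, which may be technical. The remaining libraries belong to cells with inducible MLL-AF10 or MLL-AF9 given DMSO or DOX, and to CALM-AF10 cells with Jak1 floxed or deleted by Cre-ER, and are used only for side-by-side values.

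The genes of the Hoxa and Meis1 program, of primary and secondary granules, of the ATF4 response and of the interferon response (5 lists) are left aside, and the account below is of the other genes. Levels are counts scaled to a common library size by TMM, and a gene was called when its adjusted p from edgeR's quasi-likelihood test was under 0.05. Fold changes are log2 values of off against on, so a negative value is a lower level with the fusion off. In bulk RNA of this kind, fewer cells of a type and less RNA per cell cannot be told apart.

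The libraries held between 24448224 and 40187404 counts with the fusion on, and 37445525, 30922123 and 12130633 with it off. The library off 3 was the shallowest and stood apart on the first principal component, at 19.89 against 6.68 and 6.94 for off 1 and off 2 and −10.42 to −11.87 for the 3 on libraries. Marker genes of myeloid progenitors such as Mpo, Elane and Cd34 were present in every library, with a summed level of 250980 to 263389 on and 302664 to 316923 off. Mpo made up much of that sum (means of 123240 on and 155217 off). The markers did not move together, as 6 of 10 were called higher and 1, Cd34, lower (−0.29), and Kit was at −0.27. Some defining markers of other lineages were at 0 counts in all 6 libraries. Among these were Cd3e, Cd3g and Cd8a of T cells, Ms4a1 and Pax5 of B cells, and the hemoglobin genes Hba-a1 and Hbb-b1. Other markers of these lineages had counts. Nkg7, taken as a marker of T and NK cells but also in the primary granule list left aside, had means of 2674 on and 2791 off. The T and NK cell markers Cd4 and Klrb1c had means of only 1 and 2 over the 6 libraries. Cd79b of B cells had means of 139.7 on and 129 off, and the erythroid gene Epor 78.9 and 69.5. Markers of mast cells, macrophages and megakaryocytes were present as well, with sums given below.

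With the fusion off a small share of the genes tested was called, and most called genes changed by less than 2-fold. More genes, 2699 of the 12366 tested, had an unadjusted p under 0.05 in edgeR's test, so genes not called are not shown to be unchanged. Counts of list members at that unadjusted threshold, given below, are to be read beside this share of all genes. Of 12366 genes tested, 648 were called (5.24%), 263 of them up (2.13%) and 385 down (3.11%) once the fusion was off. Among the called genes 411 changed by less than 0.5 log2 units, and 76 changed at least 2-fold, 59 of them down and 17 up (38 in all without on 2 and 40 without on 3). The median change was 0.31 among genes called higher and −0.49 among genes called lower, against −0.003 over all genes tested. The on and off libraries did not overlap for any of the 648 genes, which are among the 3705 of all genes tested (30.0%) whose states did not overlap. Of these calls 579 lay outside the lists set aside, 217 higher and 362 lower. The number of calls rested on single libraries. Leaving out on 1 gave 343 calls, on 2 gave 146, on 3 gave 163 and off 2 gave 253, whereas leaving out off 3 gave 944. A total of 125 genes were called in each of the 6 fits that left out 1 library, 85 of them lower and 40 higher.

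**Figure D1:**
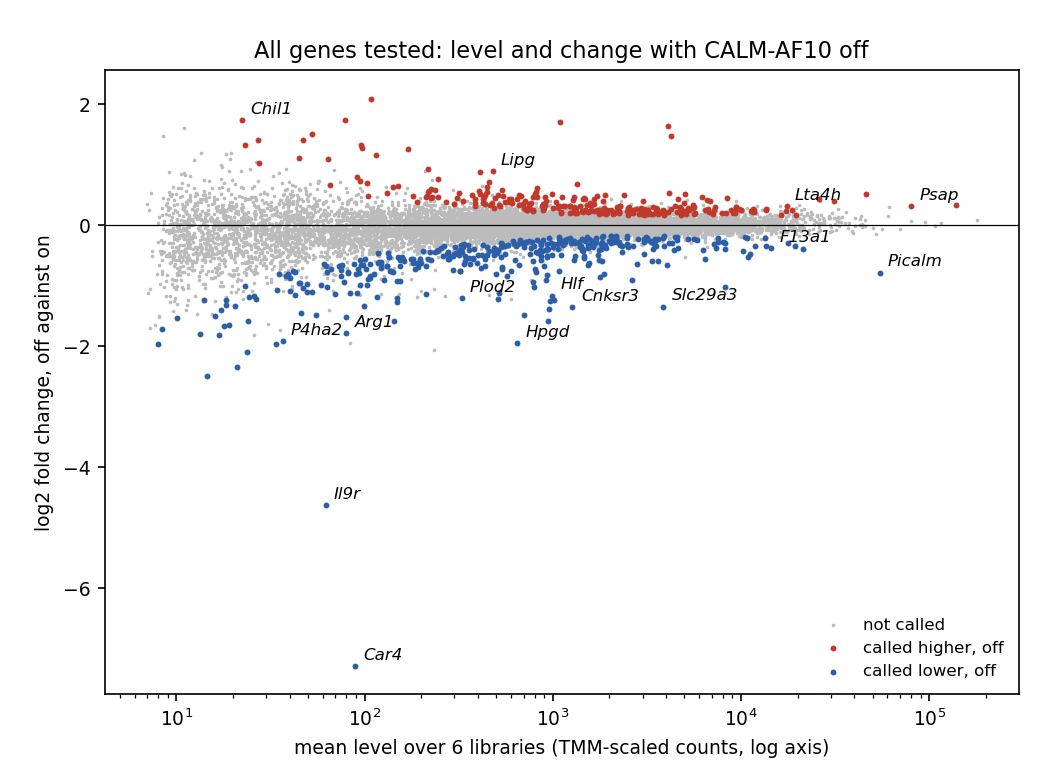
Mean level over the 6 libraries (TMM-scaled counts, log axis) against log2 fold change of off against on for the 12366 genes tested, with called genes coloured by direction. Car4 and Il9r lie far below the other genes, and most called genes lie within 1 log2 unit of 0.

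The loci that supply the fusion were both lower in the libraries named off. Picalm stood at 71537, 67033 and 68342 scaled counts on and at 41874, 42260 and 35906 off. Mllt10 stood at 12895, 12754 and 13419 on and at 8819, 9150 and 10038 off. For both genes every off library was below every on library (log2 fold changes −0.78 ± 0.064 and −0.48 ± 0.0543, SE). Counts of the fusion transcript and of the intact genes cannot be told apart in this table.

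A pair of genes almost disappeared. Car4, which encodes a carbonic anhydrase anchored to the outer cell membrane, had 203, 157 and 236 raw counts in the on libraries and 1 in each off library. The summed counts, 596 and 3, give a level 172 times higher with the fusion on, with a 95% exact interval of 58.5 to 836 that covers counting error only (adjusted p = 3.74e-06). Il9r, which encodes the receptor chain for the cytokine IL9, had scaled counts of 132.9, 113.8 and 111.2 on and of 5.78, 2.63 and 6.65 off (log2 fold change −4.63 ± 0.253, SE, adjusted p = 1.5e-05). In both genes the states were wide apart in every library, and both calls held in each of the 6 fits that left out 1 library. Pacsin1, which encodes a membrane-curving protein, also had at most 3 counts in each off library, with 10, 14 and 11 raw counts on and 3, 3 and 1 off. It fell under the filter on low counts and was not tested (ratio of on to off 4.33, 95% exact interval 1.89 to 11.5).

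The promoters of Car4 and Il9r, and that of Hpgd, the largest fall among well expressed genes, are shown because these genes had the largest falls. Each window spans 250 bases before to 50 after the start of the gene, from RefSeq on the GRCm38.p6 build, and is written 5′ to 3′ on the strand of the gene. Capitals mark TGACAG or its reverse complement, the core letters bound by MEIS proteins; the Hox and Pbx letters TGATTTAT were also searched on both strands. Car4 lies at chr11:84957504-84957803 on the plus strand, Il9r at chr11:32200230-32200529 on the minus strand and Hpgd at chr8:56294302-56294601 on the plus strand.
Car4: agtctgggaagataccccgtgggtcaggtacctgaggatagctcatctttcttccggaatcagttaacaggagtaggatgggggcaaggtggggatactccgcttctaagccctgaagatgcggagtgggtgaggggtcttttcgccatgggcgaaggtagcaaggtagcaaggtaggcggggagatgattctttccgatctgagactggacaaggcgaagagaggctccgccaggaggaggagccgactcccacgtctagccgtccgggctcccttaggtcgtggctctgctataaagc
Il9r: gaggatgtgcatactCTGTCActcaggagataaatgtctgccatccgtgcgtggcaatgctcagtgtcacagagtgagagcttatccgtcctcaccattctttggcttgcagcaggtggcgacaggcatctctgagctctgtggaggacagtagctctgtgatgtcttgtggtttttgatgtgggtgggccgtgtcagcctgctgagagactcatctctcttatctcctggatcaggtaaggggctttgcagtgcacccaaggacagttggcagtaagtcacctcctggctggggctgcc
Hpgd: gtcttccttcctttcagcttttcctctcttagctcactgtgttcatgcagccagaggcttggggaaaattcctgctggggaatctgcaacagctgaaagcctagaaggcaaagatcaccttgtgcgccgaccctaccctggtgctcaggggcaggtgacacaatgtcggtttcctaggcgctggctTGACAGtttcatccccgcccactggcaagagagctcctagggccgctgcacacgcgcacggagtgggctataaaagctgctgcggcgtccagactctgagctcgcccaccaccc
Il9r and Hpgd each hold 1 match to TGACAG and Car4 none, and none of the windows holds TGATTTAT.

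The MEIS letters were found in 20.2% of the 302 promoters of genes called lower and in 18.8% of the 192 promoters of genes called higher, against 19.3% of all 27025 promoters in the RefSeq table and 16.7% of those of the 9443 tested genes that matched by symbol. TGATTTAT was found in 2 of the 302 promoters of genes called lower (0.662%) and in 1 of the 192 of genes called higher (0.521%). The share was 1.04% of all promoters and 0.392% of those of tested genes, and counts of 2 and 1 are too few to compare with these. A match is a string of letters and not a bound site.

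Beyond Car4 and Il9r, many of the large falls were in genes with few counts. Outside the lists set aside, 39 genes with a higher group mean under 200 scaled counts fell at least 2-fold and 7 rose, a set chosen after the values were seen. Leaving out predicted genes and dates gave 35 falls and 4 rises, and 10 of these falls and 1 of these rises held in each fit that left out 1 library. Kcnh2, which encodes a voltage-gated potassium channel, went from 45.9, 61.3 and 57.3 scaled counts to 17.3, 12.3 and 8.87 (−1.97 ± 0.245, SE, adjusted p = 0.00267). The phosphodiesterase gene Pde11a went from 36.1, 30.6 and 37.3 to 5.05, 7.9 and 8.87 (−2.35 ± 0.28, SE, adjusted p = 0.00221). In both genes the highest off library was below the lowest on library by more than 20 scaled counts. Hnf4a, a nuclear receptor gene best known from liver (−1.58), Apln, which encodes the peptide ligand apelin (−1.46), and the anion transporter gene Slc26a9 (−1.14) held in every such fit as well.

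Other low-count falls were less secure. Arg1, which encodes the arginine-degrading enzyme arginase, went from 99.6, 135.7 and 126.5 scaled counts to 18.1, 43.9 and 55.4 (−1.79 ± 0.303, SE, adjusted p = 0.0115). The states did not overlap, but its call was lost without on 2 or on 3 (adjusted p at most 0.0654). Kitl, which encodes the SCF that the culture medium also supplied, went from 23.4, 29.6 and 28 to 10.8, 4.39 and 11.1 scaled counts (−1.67). Eomes, a T-box transcription factor gene (−1.39), Tgfb3, a growth factor gene (−1.72), and Pmp22, a membrane protein gene (−2.50), were also called. The calls of Kitl, Eomes, Tgfb3 and Pmp22 were each lost without on 3, with adjusted p up to 0.159 in some fit.

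Rises of at least 2-fold at low counts were 7 outside the lists set aside, of which 3 are predicted genes or symbols turned into dates and 4 are described here. Il1f9, which encodes the cytokine IL36 gamma, went from 63.5, 73.3 and 75.2 scaled counts to 131.4, 185.1 and 164.1 (1.16 ± 0.16, SE, adjusted p = 0.0045). Every off library was well above every on library, and the call held in each fit that left out 1 library. The chitinase-like gene Chil1 (1.73), Arhgef37 (1.41) and Lin28a, which encodes an RNA-binding blocker of let-7 maturation (1.32), lost their calls in some fits, with on 2 and on 3 among the libraries each needed (adjusted p up to 0.148).

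Among genes above 200 scaled counts the falls went deeper than the rises. Of the 16 largest falls 14 held in each fit that left out 1 library, and of the 16 largest rises 9 did. Plod2, which encodes an enzyme that hydroxylates collagen lysines, went from 518.7, 467.4 and 394.9 scaled counts to 216.6, 186 and 184 (−1.21 ± 0.119, SE, adjusted p = 0.000921). P4ha2, a collagen prolyl hydroxylase gene with fewer counts, went from 69.4, 41.6 and 58.6 to 11.6, 14.9 and 24.4 (−1.91 ± 0.29, SE, adjusted p = 0.00745). Both were lower in every off library than in any on library, whereas P4ha1, the better expressed collagen prolyl hydroxylase gene, had means of 3412 on and 3408 off and was not called (adjusted p = 0.973).

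Several regulators were among the well expressed falls. Hlf, a leucine zipper transcription factor gene of hematopoietic stem cells, went from 1260, 1461 and 1396 scaled counts to 597.1, 615.1 and 634 (−1.16 ± 0.0661, SE, adjusted p = 1.73e-05). The homeobox gene Nkx2-3 went from 845, 655.7 and 635.9 to 352.3, 335.2 and 270.4 (−1.12 ± 0.126, SE, adjusted p = 0.0018). The states of both genes were clearly separate. Tnip3, whose product binds the NF-kB inhibitor A20, fell by 1.22, Hcar2, the receptor gene for niacin and hydroxybutyrate, by 1.20, and Myct1 by 0.94.

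Emp1, a tetraspan membrane protein gene, went from 1374, 1327 and 1368 scaled counts to 471.4, 641.4 and 607.4 (−1.26 ± 0.0993, SE, adjusted p = 0.000216). The on libraries lay close together and all far above the off libraries. Slc29a3, a lysosomal nucleoside transporter gene, went from 5494, 5571 and 5621 to 2224, 2409 and 1873 (−1.35 ± 0.076, SE). Cnksr3 and Ipcef1, the first a scaffold gene of the Ras pathway and the second an interactor of cytohesin exchange factors, went from 1980, 1807 and 1714 to 750.1, 693.1 and 691.6 and from 1125, 1010 and 974.9 to 358.1, 388.7 and 361.3. Spp1 (osteopontin) at −1.03 and Mmp12 (macrophage elastase) at −1.59 were the falls among these 16 that lost their calls when a library was left out, both without on 2 and without on 3 (adjusted p at most 0.137 and 0.0985).

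The largest rises were moderate. Bzrap1, whose gene lies beside Mpo, went from 975.9, 1094 and 1022 scaled counts to 1518, 1610 and 1864 (0.68 ± 0.0772, SE, adjusted p = 0.00182). Rhou went from 356.6, 350.3 and 350.3 to 509, 604.5 and 507.6 (0.62 ± 0.0838, SE, adjusted p = 0.00393). Both calls held in each fit that left out 1 library, and the lowest off library exceeded the highest on library by more than 100 scaled counts. Slc1a4, a neutral amino acid transporter gene, went from 660.4, 670 and 651.9 to 955.9, 1013 and 911.1 (0.55 ± 0.0578, SE, adjusted p = 0.00148), and the peptidase inhibitor gene Pi16 from 846, 775 and 816.4 to 1170, 1108 and 1221 (0.52 ± 0.0581, SE, adjusted p = 0.0018).

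Both diacylglycerol acyltransferase genes were called higher. Dgat2, which encodes the enzyme that adds the last acyl chain to triglycerides, went from 432.8, 385.3 and 474.1 scaled counts to 635.3, 644 and 665 (0.58 ± 0.0808, SE, adjusted p = 0.00519). Its neighbour Mogat2, a monoacylglycerol acyltransferase gene named after its values were seen, went from 193.4, 173 and 176.5 to 285.2, 283.4 and 239.4 (0.59 ± 0.101, SE, adjusted p = 0.0115). Dgat1, the other diacylglycerol acyltransferase gene, rose by 0.37 (adjusted p = 0.00397). All 3 genes were higher in every off library than in any on library, while the acyltransferase gene Agpat2 stood at 0.05 (adjusted p = 0.626). The Mogat2 call was lost without on 2, on 3 or off 2 (adjusted p at most 0.0702). The surface ADP-ribosyl cyclase gene Bst1 rose by 0.71 from 399.6, 347 and 292.3 to 501, 573.8 and 631.8 scaled counts, and its call too was lost without on 2, on 3 or off 2 (adjusted p at most 0.0648).

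**Figure D2:**
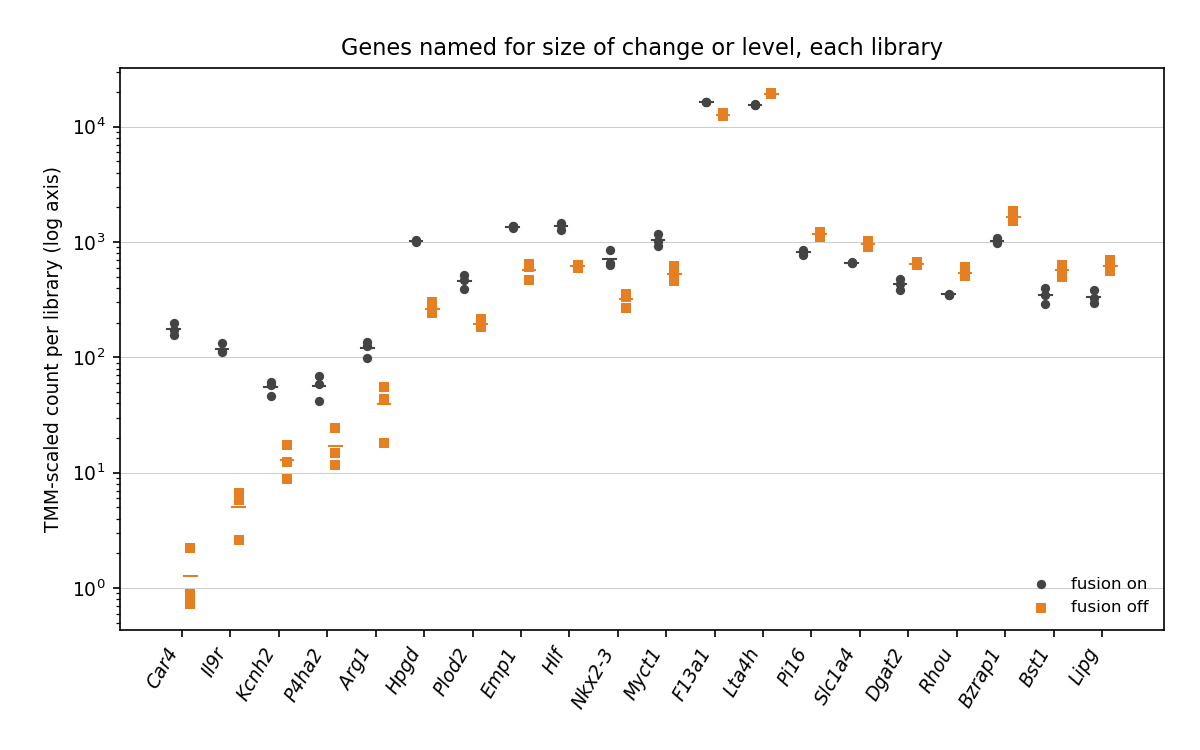
TMM-scaled counts (log axis) of 20 genes named for the size of their change or their level, with 1 point per library, circles for the fusion on, squares for the fusion off and bars for the mean of 3. The states do not overlap in any of these genes, and the falls of Car4 and Il9r are far deeper than the rises at the right.

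Among the called genes with the most counts the changes were small. Lta4h, an enzyme gene of leukotriene synthesis, went from 15516, 15389 and 15799 scaled counts to 19217, 19271 and 19590 (0.31 ± 0.0389, SE, adjusted p = 0.00264). F13a1, which encodes a subunit of the clot-stabilizing transglutaminase factor XIII, went from 16530, 16263 and 16432 to 12307, 13062 and 12372 (−0.38 ± 0.0422, SE, adjusted p = 0.00166). In both the gap between the states was several times the range within each. Psap, the precursor gene of the saposins that help lysosomes degrade sphingolipids, rose by 0.31, and lost its call without on 2 (adjusted p = 0.0634). Coro1a (0.25), Ucp2 (0.24), Sun2 (0.24), Nin (0.27), Aldh2 (0.17) and Fam107b (0.17) were the other 6 of the 8 called rises with the highest counts. Of those 8 only Lta4h held in each fit that left out 1 library, and of the 8 called falls with the highest counts 2 did.

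Among the lists described here, stem and progenitor genes had the largest share of calls. The lists and their members were chosen with earlier results of these data known, so this share is a description only. Of 25 tested members 12 fell and 1 rose (52% called, against 5.24% of all genes tested), and the median was −0.345 against −0.003 over all genes. The number of falls was 5 to 14 when each library was left out in turn, lowest without on 2 or on 3, and 5 members held in each of those fits. These were Hlf, Procr, Cd27, Angpt1 and Muc13. Angpt1, which encodes a ligand of the receptor Tie2, went from 3764, 3152 and 3303 scaled counts to 2426, 2084 and 2015 (−0.64 ± 0.0831, SE). Muc13, a transmembrane mucin gene, went from 13248, 12691 and 12624 to 9422, 8706 and 8761 (−0.52). Procr, the protein C receptor gene that marks stem cells, went from 121.1, 119.3 and 134.5 to 54.9, 61.4 and 55.4 (−1.13). In each the off libraries lay well below the on libraries. The stem cell antigen gene Cd34 (−0.29), the receptor genes Cd93 (−0.40), Adgrg1 (−0.34) and Flt3 (−0.56), the RNA-binding protein gene Msi2 (−0.47) and the Polycomb gene Bmi1 (−0.38) were called but needed on 2 and on 3 (adjusted p up to 0.137 in some fit), as did Spp1. Prom1, which encodes the antigen CD133, was the member that rose (0.47) and lost its call in the same way. Kit, the SCF receptor gene, was at −0.27 and just missed the threshold (adjusted p = 0.051).

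Cytokine receptor genes fell where they changed. Of 45 tested members 9 fell and 0 rose at this threshold (20% called), but the median was −0.03, so most members stayed near 0. The falls numbered 3 to 9 when each library was left out in turn, lowest without on 3, and up to 4 rises were called in some of those fits. After Il9r came Il7r (−1.19), Il5ra (−0.97), Il2ra (−0.81) and the costimulatory receptor gene Cd27 (−0.75). Il2ra, the alpha chain of the IL2 receptor, went from 2023, 2467 and 2680 scaled counts to 1127, 1542 and 1445, with no overlap. Il1r1 (−0.35), Il18rap (−0.34), Il10rb (−0.30) and Tgfbr2 (−0.28) made up the rest. Il9r, Il2ra and Cd27 held in each fit that left out 1 library. At an unadjusted p under 0.05 there were 14 lower and 6 higher members, and DESeq2 called 9 lower and 3 higher. The receptor chains for the cytokines in the medium were not called: Il3ra stood at 0.11, Csf2rb at 0.02, Il6ra at 0.21 and Il6st at 0.02 (adjusted p between 0.175 and 0.893), beside Kit.

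**Figure D3:**
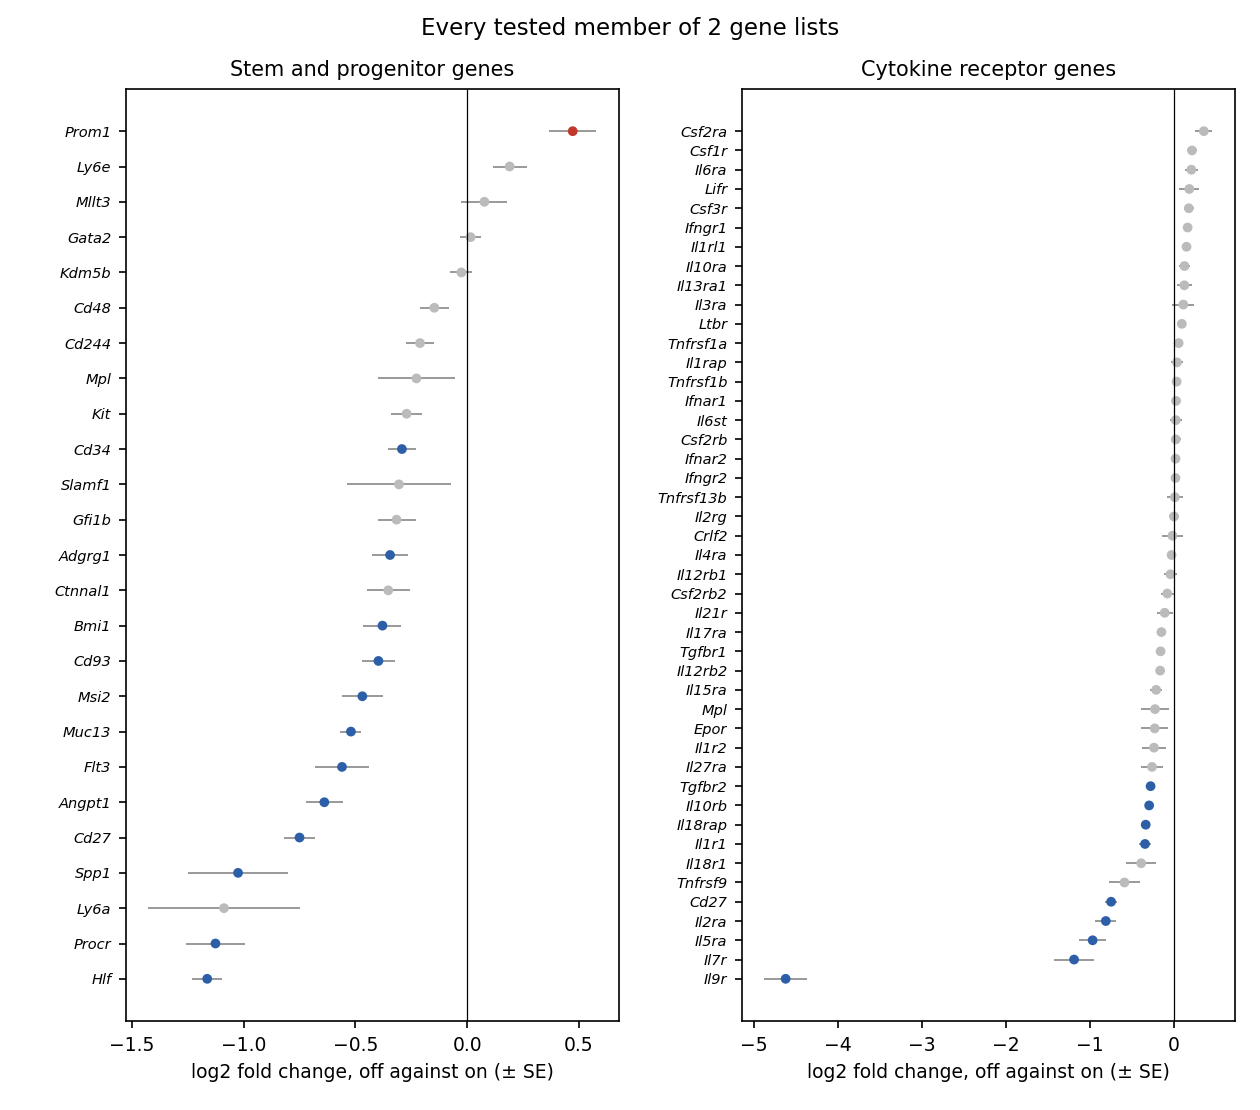
Log2 fold change of off against on with its SE for every tested member of the stem and progenitor list (25 genes, left) and the cytokine receptor list (45 genes, right), coloured where called. Most stem and progenitor genes lie below 0, whereas most cytokine receptor genes lie near 0 and Il9r at −4.63 stands alone.

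Transcription factors and related regulators of the blood lineages moved in both directions. Of 69 tested members 7 rose and 5 fell (17.4% called, median −0.06). The granulocyte and monocyte factor genes Cebpa (0.45), Cebpd (0.33), Spi1 (0.28), Klf4 (0.47), Irf5 (0.31) and Gfi1 (0.20) were among the rises, together with Klf13 (0.29). The falls were Hlf, Nkx2-3, the RNA-binding regulator Msi2, Erg (−0.36) and Lmo2 (−0.28). Other members were not called, among them Gata2 (0.01), Tal1 (−0.06), Lyl1 (0.13), Runx1 (−0.14) and Irf8 (0.19). Only Hlf and Nkx2-3 held in each fit that left out 1 library, and without on 2 or on 3 none of the 7 rises was called. Falls numbered 2 without any 1 of the on libraries and 9 without off 3.

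Genes of eicosanoid synthesis and breakdown changed at several steps. Of 30 tested members 4 rose and 4 fell (26.7% called, median 0.03). Hpgd, whose product inactivates prostaglandins, fell from 1010, 1052 and 1027 scaled counts to 242.6, 301.8 and 248.3. Ptgs2, the gene of the inducible cyclooxygenase that starts their synthesis, fell from 154.3, 136.8 and 139.8 to 61.4, 57.9 and 46.5. Both were lower in every off library, whereas Ptgs1, the constitutive and more highly counted cyclooxygenase gene, was not called (means 6452 on and 6722 off, adjusted p = 0.54). The thromboxane receptor gene Tbxa2r (−0.94) and the phospholipase gene Pla2g4a (−0.22) fell, and the leukotriene genes Lta4h and Cyp4f18 (0.26) rose, as did Ptgr1 (0.33) and Akr1c18 (0.88). Hpgd, Ptgs2 and Lta4h were the 3 members that held in each fit that left out 1 library. Rises numbered 1 to 4 in those fits, fewest without on 2 or off 2, and falls 2 to 5, fewest without off 2 or any on library.

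Metabolic genes moved in small groups. Of 31 genes of glycolysis and the hypoxia response 5 fell and 0 rose (16.1% called, median −0.099), with 13 lower and 3 higher at an unadjusted p under 0.05 and 8 lower and 0 higher by DESeq2. The falls were Bnip3 (−0.40), Aldoc (−0.32), Slc16a3 (−0.25), Pdk1 (−0.23) and Slc2a1 (−0.19). Aldoc, an aldolase gene, was the member that held in each fit that left out 1 library, and the falls numbered 1 to 7 in those fits, lowest without on 3. Of 37 genes of detoxification and redox control 5 rose and 4 fell (24.3% called). The peroxiredoxin genes Prdx1 (−0.37) and Prdx4 (−0.47) fell, while Prdx5 (0.46) and the glutathione reductase gene Gsr (0.29) rose, and all 4 held in each fit that left out 1 library, where the list had 2 to 8 rises, fewest without on 2 or on 3, and 2 to 3 falls. Prdx1 went from 8123, 8036 and 8888 scaled counts to 6651, 6595 and 6072, and Prdx5 from 5263, 5307 and 5145 to 6631, 7027 and 8080. Members of the peroxiredoxin family thus moved apart, with no overlap between states in either gene. Of 40 lipid handling genes 4 rose (Lipg, Dgat1, Dgat2 and Lpcat2) and 2 fell (Abca1 and Me1), 15% of the list. In the fits that left out 1 library there were 3 to 6 rises and 0 to 3 falls, with no fall without on 2 or on 3.

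Symbol families of transporters, surface proteins and protease inhibitors held more falls than rises, as did all genes tested (3.11% lower and 2.13% higher). Of 34 ABC transporter genes 5 fell and 0 rose (14.7% called), led by Abcb4 (−0.91) and Abca4 (−0.72), but only Abca4 held in each fit that left out 1 library, and 1 to 5 fell in those fits, fewest without on 3. DESeq2 called 1 rise in this family, and 4 members were higher at an unadjusted p under 0.05. Of 196 solute carrier genes 11 fell and 5 rose (8.16% called, near the 5.24% of all genes, with 31 lower and 24 higher at an unadjusted p under 0.05), and with 1 library left out the falls numbered 3 to 14, fewest without on 3, and the rises 1 to 9, fewest without on 2 or off 2. Of 54 CD antigen genes 6 fell and 1 rose (13% called), with 2 to 8 falls when 1 library was left out, fewest without on 2 or on 3. Among them was Cd33, an inhibitory receptor gene of myeloid cells, which went from 4500, 5107 and 5301 scaled counts to 2994, 3448 and 3050 (−0.65) and held in every such fit. Of 16 serpin genes 3 fell and 0 rose, none being higher at an unadjusted p under 0.05 or by DESeq2, and Serpina3f at −0.90 was the one that held, with 1 fall called without off 2 or any on library.

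Genes of growth and division gave few calls. None of 49 ribosome biogenesis genes, 49 proteasome genes, 16 histone genes or 17 antigen presentation genes was called by edgeR's quasi-likelihood test or by DESeq2, while 6, 2, 3 and 1 of them had an unadjusted p under 0.05. None of 24 genes of the TCA cycle or 77 mitochondrial ribosomal protein genes was called either. At an unadjusted p under 0.05, 6 and 16 of them were higher, beside 2699 of all 12366 genes tested in either direction. DESeq2 called 2 and 1 of them higher. Of 49 DNA replication genes 1 was called (Ccne2 at −0.31), of 44 mitosis genes 1 (Plk1 at 0.17) and of 83 oxidative phosphorylation genes 1 (Uqcrq at 0.30). None of these 3 calls held in each fit that left out 1 library. At an unadjusted p under 0.05 there were 2 higher and 3 lower DNA replication genes, 13 higher and 0 lower mitosis genes, and 21 higher and 1 lower oxidative phosphorylation genes. DESeq2 called 1 lower, 3 higher and 2 higher in these lists. Cytosolic ribosomal protein genes lay slightly above 0 as a family. Only 1 of 84 was called (Rps23 at 0.20, not held in each such fit), but their median was 0.153, 44 were higher and 0 lower at an unadjusted p under 0.05, and DESeq2 called 11 higher. Without off 3 edgeR called 9 of them, and the median was 0.137 with library totals only and 0.092 without off 3. Of 18 cell cycle control genes 2 fell and 0 rose (11.1% called, 2 lower and 0 higher by DESeq2), with 5 lower and 0 higher at an unadjusted p under 0.05. The cell cycle inhibitor gene Cdkn2c fell from 1825, 1734 and 1629 scaled counts to 1248, 1178 and 1199 (−0.51) and held in each fit that left out 1 library. Cdkn1c, another inhibitor gene, fell by 0.88 at low counts, and its call was kept only without off 3 (adjusted p up to 0.139). Of the 312 tested Zfp zinc finger genes 4 were called (1.28%).

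**Figure D4:**
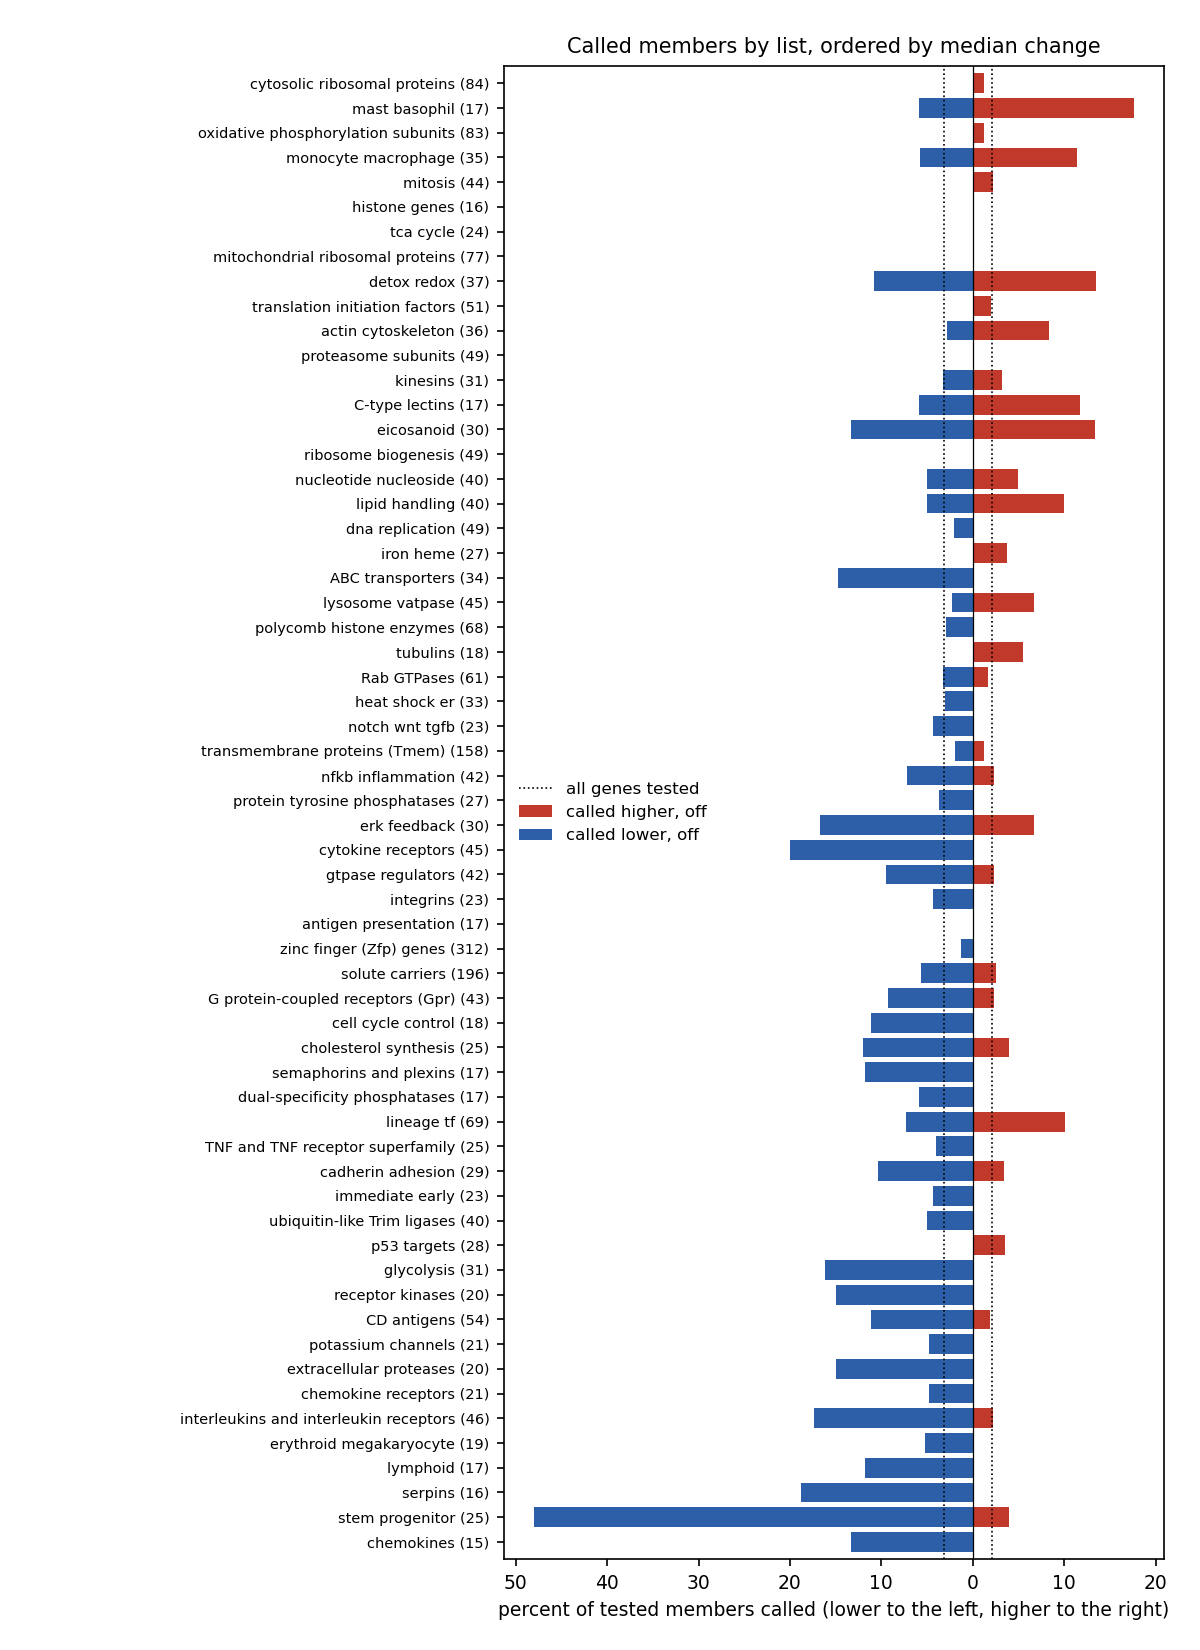
Percent of tested members called lower (left, blue) and higher (right, red) for each gene list or symbol family with at least 15 tested members other than Arhg genes, in order of median change, with the number tested in parentheses and dotted lines at 3.11% lower and 2.13% higher for all genes. Stem and progenitor genes have the longest bar, and lists of ribosome biogenesis, proteasome and TCA cycle genes have none.

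Markers of other blood lineages moved with the state in some lists, and their part in the results above was not tested. Of 17 mast cell and basophil genes 3 rose and 1 fell (23.5% called, against 5.24% of all genes), and none of the 3 rises was called without on 2 or on 3. The rises were the protease genes Mcpt8 (0.44), Tpsb2 (0.47) and Prss34 (0.51), and the fall was the amine transporter gene Slc18a2 (−0.37). The 7 defining mast cell and basophil markers summed to 8334 to 9324 scaled counts on and 9939 to 11310 off. Among 35 genes of monocytes and macrophages there were 4 rises and 2 falls (17.1% called; 1 to 4 and 1 to 3 with 1 library left out, fewest without on 2 or on 3), among them the C-type lectin gene Clec12a (0.42) and F13a1. Defining macrophage markers summed to 12508 to 13836 on and 13457 to 15914 off, which overlap. Megakaryocyte markers were lower with the fusion off, at 7793 to 8220 against 9118 to 9439 on, and 1 of 6, the integrin gene Itga2b, was called (−0.21), a call lost without on 1, on 2, on 3 or off 2 (adjusted p at most 0.141).

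Called genes lay side by side in the genome in some places. With positions from the mm9 annotation, 11275 tested genes, 604 of them called, formed 11255 adjacent pairs. In 41 pairs both genes were called in the same direction, 28 lower and 13 higher, against 11 pairs in opposite directions. Whether these counts exceed what that share of calls would give was not tested. Adjacent genes could lie far apart, such as Plod2 and the next tested gene at 1915017 bases. The 41 pairs became 7 without on 2 or on 3, 13 without off 2, 19 without on 1, 22 without off 1 and 66 without off 3. Cnksr3 and Ipcef1 lie 66585 bases apart on chromosome 10, and Dgat2 and Mogat2 lie 36371 bases apart on chromosome 7. The chemokine genes Ccl3 (−0.86) and Ccl4, the prostaglandin genes Pla2g4a and Ptgs2, the ABC transporter genes Abcb1b (−0.45) and Abcb4, and the costimulatory receptor genes Cd28 (−0.50) and Icos (−0.98) were further pairs that fell together. Gpr171 and P2ry14 lie within the span of Med12l on chromosome 3, and Med12l, Gpr171 and P2ry14 fell by 0.48, 0.41 and 0.41. The strand setting of the counts is not stated, so these falls may not be separate. Snrnp25, the neighbour of Il9r at 5136 bases, fell by 0.29. Some pairs belong to the lists set aside, such as 4 of Hoxa genes.

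The other fusion models were set beside these calls without a test of the overlap, since each table was processed differently. With DOX in the MLL-AF10 cells, 10.6% of tested genes were called higher and 9.17% lower by limma. Of the 278 CALM-AF10 falls tested there, 147 were also called lower (52.9%, and 15.6% of the MLL-AF10 falls), against 9.2% of all genes tested in both. Of the 244 rises 153 were also called higher (62.7%, and 14.1% of the MLL-AF10 rises), and 3 falls and 2 rises were called in the opposite direction. Without on 2 the shared falls were 50 and the shared rises 36, and without off 3 the shared rises were 234. With DOX in the MLL-AF9 cells, 7.23% of tested genes were called higher and 4.54% lower. Of the 253 CALM-AF10 rises tested there 85 were called higher (33.6%, and 11.1% of the MLL-AF9 rises), and of the 247 falls 39 were called lower (15.8%, and 8.09% of the MLL-AF9 falls) and 30 higher. Those counts were 25 and 15 without on 2 and 31 and 15 without on 3.

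Among the falls, then, some genes were also lower with DOX in both MLL models and others went opposite ways. DOX was not tied to on or off in those cells, and an effect of DOX itself cannot be told apart. In all 3 models 30 genes were called lower and 71 higher, of 9777 tested in each. Slc29a3 was at −1.35, −0.55 and −1.24 in CALM-AF10, MLL-AF10 and MLL-AF9, Cnksr3 at −1.36, −0.22 and −1.47, and Erg at −0.36, −0.65 and −0.55. Rhou was at 0.62, 0.42 and 0.48 and Bst1 at 0.71, 0.41 and 1.55. In contrast, Emp1 at −1.26 and −0.27 in the AF10 models was at 0.53 in MLL-AF9, and Hcar2, Arg1 and Il7r, which fell with CALM-AF10 off, were called higher there (0.93, 1.20 and 1.52). Of the 463 CALM-AF10 calls tested in all 3 models, 146 were called in neither MLL model. Without on 2 the genes called in all 3 models were 12 lower and 21 higher, and 13 of 99 calls were in neither MLL model. Without on 3 they were 12 and 26, with 14 of 105. Without on 1 they were 15 and 44 (77 of 247), and without off 2 they were 14 and 37 (41 of 181). Without off 3 they were 36 and 94, with 272 of 729. The depth and scale of the tables differ, so fold sizes were not compared between models.

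Car4 was followed across the experiments. In MLL-AF9 it had 435, 335 and 380 FPKM with DMSO and 116, 144 and 142 with DOX, so every DOX library was lower (limma adjusted p = 0.000635, with a change of −1.51 in log2(FPKM + 1)). In MLL-AF10 its deposited log2 values, 2.60 to 2.64 with DMSO and 2.52 with DOX, were under the filter and were not tested. The Jak1 table names its columns DMSO and Jak1_Del, and the DMSO columns were taken as the floxed libraries because that is the remaining group of the experiment in the labels. In these floxed cells Car4 had 28, 29 and 19 raw counts, and with Jak1 deleted it had 0 in each of the 3 libraries. It was thus at or near 0 counts both with the fusion off and with Jak1 deleted.

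Deletion of Jak1, the kinase that transmits signals of many cytokine receptors, touched far more genes, with 28.3% of tested genes called lower and 27.4% higher. Of 320 CALM-AF10 falls tested there 177 were called lower (55.3%, and 5.68% of the Jak1 falls), against 27.7% of all genes tested in both, and 69 higher. Of 255 CALM-AF10 rises 68 were called higher (26.7%, and 2.17% of the Jak1 rises), against 27.8%, and 119 lower. Without on 2 the shared falls were 44 and the shared rises 13, and without off 3 the shared rises were 125. Arg1 had 106, 150 and 92 raw counts with Jak1 floxed and 1, 2 and 5 with it deleted, and Plod2 (−4.17), P4ha2 (−4.65), Ccl4 (−2.75), Spp1 (−2.49), Hcar2 (−1.46) and Il2ra (−1.34) were also lower. Slc29a3, a fall with CALM-AF10 off, was higher with Jak1 deleted (0.38), and Cnksr3 was not called there (0.07). Fam101b rose in both (0.50 with Jak1 deleted). Among the CALM-AF10 rises, Lipg (−2.50), Akr1c18 (−1.89) and Bzrap1 (−1.16) were lower with Jak1 deleted.

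**Figure D5:**
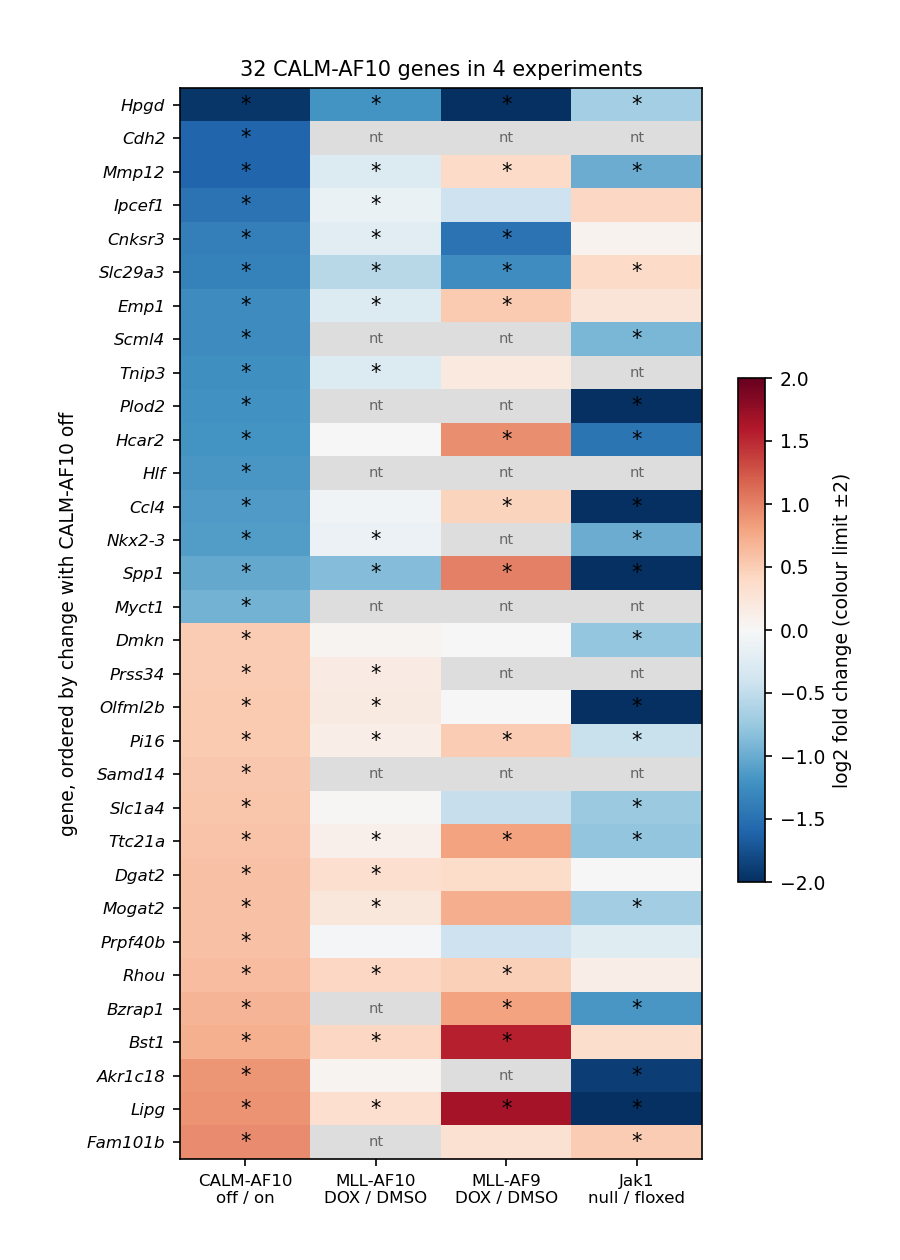
Log2 fold changes of the 16 largest falls and 16 largest rises with CALM-AF10 off, in 4 experiments, with stars for adjusted p under 0.05, nt for genes not tested and colours limited at 2 log2 units. Hpgd is lower in every experiment, whereas Spp1, Mmp12 and Hcar2 are higher in MLL-AF9, and Lipg is higher in the fusion models and lower with Jak1 deleted.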

How the data were processed

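PolyA RNA of cultured mouse leukemia cells was sequenced from Illumina TruSeq libraries, per the labels' protocols. Bowtie 0.12.2 and the build mm9 are named in the submitters' processing notes, while the counting tool, annotation and strand setting are not stated in what was used here. The authors deposited raw read counts per gene symbol for CALM-AF10 on and off (12130633 to 40187404 per library). They deposited log2 values of unstated transformation for MLL-AF10 and FPKM for MLL-AF9. The Jak1 table that the authors deposited is named FPKM but holds whole-number counts, so it was tested as counts in place of the planned limma test.

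Counts were filtered with filterByExpr, scaled by TMM and tested with the quasi-likelihood test of edgeR 4.0.16 in R 4.3.3, off against on over the 6 libraries without a block. The Benjamini-Hochberg adjustment ran over all genes tested, with a threshold of 0.05, and the SE of a fold change was derived from the F statistic. The MLL-AF10 log2 values (mean of at least log2 of 10) and the MLL-AF9 log2(FPKM + 1) values (mean FPKM of at least 1) were tested with limma 3.58.1. Exact intervals were computed with scipy 1.17.1 in Python 3.11.15. The edgeR and limma scripts were tested on simulated data with known changes first. Gene positions came from an annotation of mm9 and promoters from RefSeq on GRCm38.p6, and both were matched by symbol.

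The genes named were the 16 largest rises and falls whose higher group mean reached 200 scaled counts and whose states did not overlap, the 8 called genes with the highest counts per direction, up to 4 members per list by adjusted p, the fusion loci and genes with at most 3 counts in each library of one state against at least 10 in each of the other. Other genes named were chosen after their values were seen. The 41 gene lists and 26 symbol families, and the members in each, were chosen with earlier results of these data known. Symbols that a spreadsheet had turned into dates (27) or that were repeated (2) are not named. DESeq2 1.42.0, other scalings, other filters, the replicate number as a block and each library left out were tried as alternatives. A deposited sheet of gene names alone was not used.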

Additional observations from a re-analysis of the deposited data

How the results depend on the processing

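The number of genes called depended most on single libraries. It was 648 with all 6 libraries and 146 to 944 when each was left out in turn, fewest without on 2 and most without off 3. The same fits gave 49 to 442 genes called higher (263 with all libraries), 97 to 502 called lower (385) and 38 to 85 called at least 2-fold (76). They gave 54 to 264 calls among the described lists (187) and 7 to 66 neighbouring pairs (41). Calls shared with MLL-AF10 ranged from 50 to 183 lower (147) and 36 to 234 higher (153), with MLL-AF9 from 15 to 53 lower (39) and 25 to 117 higher (85), and with the Jak1 deletion from 44 to 228 lower (177) and 13 to 125 higher (68). Tools and scalings mattered less. DESeq2 called 860 genes, RLE size factors 660, upper quartile scaling 661, library totals only 675, no filter 811 and the stricter filter (a mean of at least 100 scaled counts) 562. DESeq2 also gave 63 neighbouring pairs and 110 rises shared with the Jak1 deletion, and the stricter filter left 25 genes called at least 2-fold because genes with few counts were not tested. Other filters or pseudocounts for the MLL tables moved no shared count by over 1.5 times. With the replicate number as a block 1048 genes were called, 408 higher and 640 lower, with 300 list members, 87 neighbouring pairs, 128 rises shared with MLL-AF9 and 277 falls shared with the Jak1 deletion. The numbers were not taken as pairs, since the deviations of same-numbered libraries correlated at 0.386, 0.211 and 0.065 across genes, and on 3 correlated better with off 2 (0.185) than with off 3. No called gene changed sign under these alternatives. Of 298 named genes 281 kept their calls with DESeq2, 98 without on 2 and 101 without on 3. The shallow off 3, with 12130633 counts, limits precision for genes with few counts. Apart from the stricter filter, the cause of these shifts was not tested.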
